A study of Mus musculus with 28 samples.

Results

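The 9 genes described here encode 7 cytochromes P450 (Cyp7b1, Cyp4b1, Cyp2d9, Cyp2e1, Cyp4a10, Cyp4a14 and Cyp2j5) and 2 carboxylesterases (Ces1d and Ces1f), read out in mouse kidney cortex with duodenum as the comparison. They were taken by symbol from the 30227 genes of the kidney count table, and all 9 were present. Cyp7b1, Cyp4b1, Cyp2d9 and Ces1d were picked because they changed in the kidneys of mutant mice, so they were chosen by their kidney counts in mutants against WT, and those values are given as a description with no test. The other 5 were not picked for a change and were tested.

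The mice carried a normal vitamin D receptor gene (Vdr+/+, called WT), no working receptor (Vdr-/-, called KO) or a receptor whose activation function 2 is lost (Vdr AF2, called AF2), the surface that recruits coactivators once hormone is bound. All were 8-week-old females, and every group ate the same diet high in calcium, phosphate and lactose (TD.96348, named a rescue diet in the file headers). For each tissue there were 6 WT, 4 KO and 4 AF2 libraries, made from total RNA with a kit that reads 3′ ends of transcripts. The null line is named Demay in the file headers, and which part of Vdr it lacks is not given in the sources used here. The receptor change is present in every cell of these mice as far as the labels say, since no Cre or tissue promoter is named. The labels do not state that each library came from a separate animal, so p-values measure the spread between these libraries.

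Cytochromes P450 are haem enzymes that insert oxygen into fatty acids, sterols, hormones and foreign compounds, with electrons passed on by a reductase. In the kidney most of this activity lies in the proximal tubule, where family 4 enzymes hydroxylate fatty acids and family 2 epoxygenases act on arachidonic acid. Carboxylesterases split ester bonds of drugs and of lipids such as triacylglycerol. Vitamin D metabolism uses P450s too, with Cyp27b1 making the active hormone and Cyp24a1 breaking it down.

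Of the 9 genes, 4 matched the table of RefSeq promoters, each 300 bases long with 250 bases before the start of transcription and 50 after it (GRCm38.p6). The promoters of 3 of them are shown because these genes differed most steadily between the genotypes: Cyp4b1 (chr4:115647672-115647971, minus strand), Cyp2d9 (chr15:82452127-82452426, plus strand) and Cyp2j5 (chr4:96664070-96664369, minus strand). They are written 5′ to 3′ with receptor half-sites in capitals.
Cyp4b1: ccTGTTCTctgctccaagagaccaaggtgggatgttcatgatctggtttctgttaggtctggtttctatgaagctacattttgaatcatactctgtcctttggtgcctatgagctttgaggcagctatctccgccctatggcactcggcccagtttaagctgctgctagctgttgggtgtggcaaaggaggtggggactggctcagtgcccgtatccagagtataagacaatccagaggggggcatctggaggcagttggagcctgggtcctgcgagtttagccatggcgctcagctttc
Cyp2d9: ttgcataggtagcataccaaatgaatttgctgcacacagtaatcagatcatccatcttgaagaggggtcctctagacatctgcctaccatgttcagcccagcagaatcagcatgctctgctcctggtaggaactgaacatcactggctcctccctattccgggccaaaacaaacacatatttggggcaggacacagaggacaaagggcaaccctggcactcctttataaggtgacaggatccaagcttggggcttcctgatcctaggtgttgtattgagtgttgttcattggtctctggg
Cyp2j5: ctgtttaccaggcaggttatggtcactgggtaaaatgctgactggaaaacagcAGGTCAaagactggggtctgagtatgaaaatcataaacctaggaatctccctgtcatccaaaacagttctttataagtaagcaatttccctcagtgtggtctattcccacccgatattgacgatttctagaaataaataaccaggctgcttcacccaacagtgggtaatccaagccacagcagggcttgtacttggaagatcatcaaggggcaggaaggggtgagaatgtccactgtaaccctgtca
The full element of the vitamin D receptor and its partner, a direct repeat of AGGTCA with a spacer of 3 bases of any kind, was searched on both strands and stood in none of the 4 matched windows, against 2 of 32851 promoters (0.00609%). The half-site AGGTCA, which also makes up that element, stood in the Cyp2j5 window and in 16.3% of all promoters. The androgen and glucocorticoid receptor half-site AGAACA stood in the Cyp4b1 window, read on the opposite strand, and in 19.0% of all promoters. These are matches of letters in short windows.

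Library totals were 3725648 to 6492228 counts in kidney and 3713352 to 25181916 in duodenum, where WT 2 had the highest. Every deposited count was even, and reads are given below as counts divided by 2. Levels are in CPM, the deposited counts scaled to library size with edgeR's TMM factors, and are not divided by transcript length. Where genes are ranked by CPM or set in a ratio, the values compare counts only. Vdr itself measured 177 to 212 CPM in WT kidney, 7.94 to 22.1 in KO and 64.8 to 91.9 in AF2. Since 3′ tags outside a deleted part are still counted, the remaining KO signal says nothing of a working receptor. Xist measured 527 to 933 CPM in all WT kidney libraries and 529 to 684 in the mutants, as in female tissue. In kidney AF2 4 stood apart, with 21.5 CPM of Cyp27b1 where AF2 1 to AF2 3 had 248 to 327. KO 1, KO 2 and KO 3 each stood apart in 1 of the 9 genes, and those values are also given without them.

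**Figure D1:**
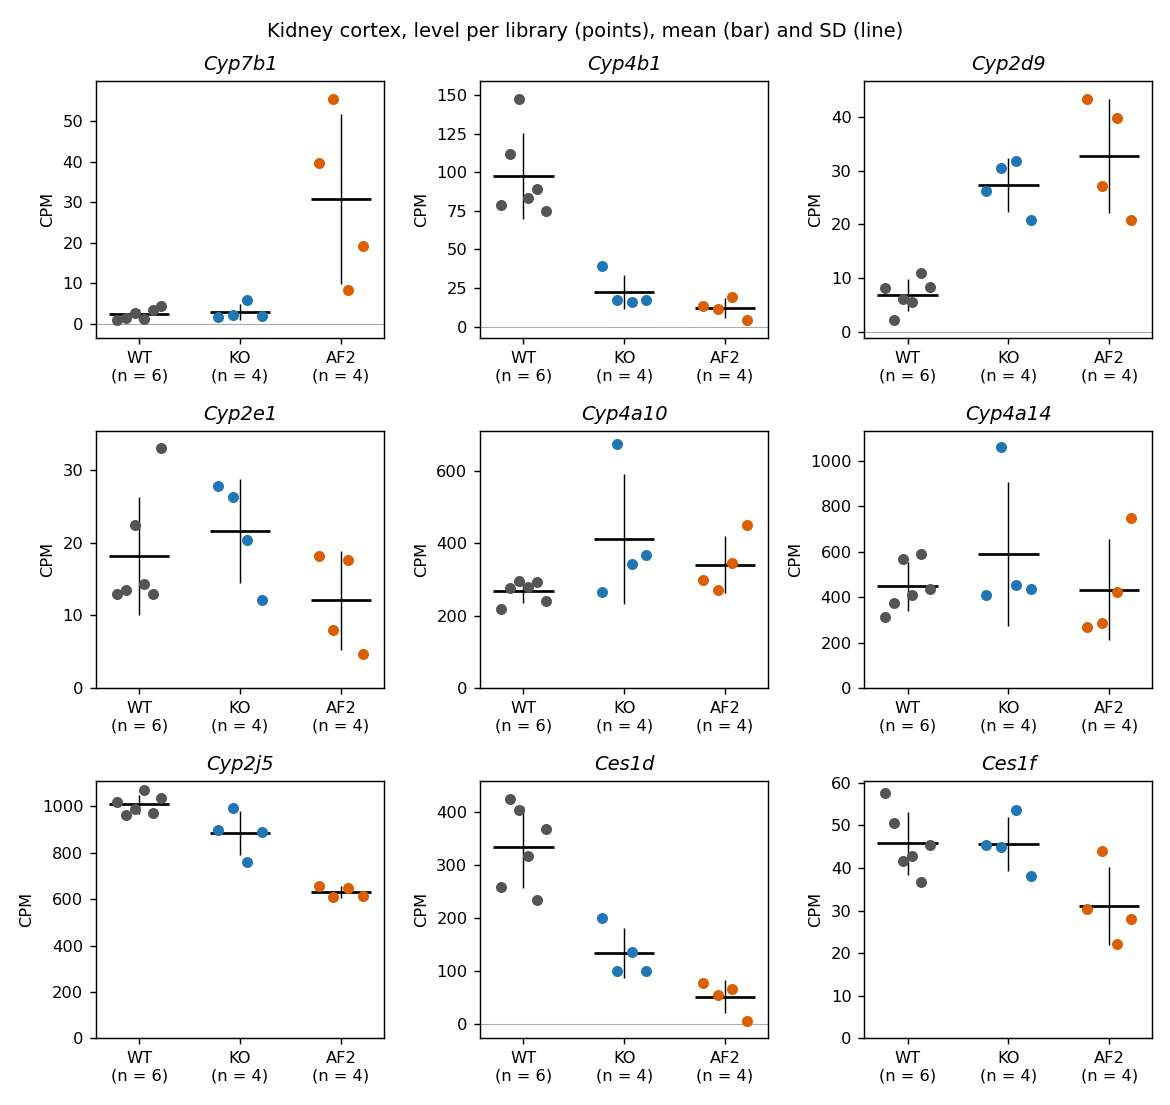
Level in CPM of each of the 9 genes in every kidney cortex library (points), with the mean (bar) and SD (line) of 6 WT, 4 KO and 4 AF2 libraries. Cyp4b1 and Ces1d sit lower and Cyp2d9 higher in all mutant libraries than in any WT library, Cyp7b1 is high in AF2, and Cyp2j5 forms a tight lower group in AF2 at 609 to 658 CPM.

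Cyp7b1 (chromosome 3, 18071950 to 18243338, minus strand, mm10), the oxysterol hydroxylase of the alternative bile acid pathway, stood out in AF2 kidney. In WT its level ranged from 0.864 to 4.48 CPM with a median of 1.97. KO 1 to KO 4 had 1.54, 2.06, 5.90 and 1.89 CPM, whereas AF2 1 to AF2 4 had 39.8, 55.6, 8.39 and 19.3 CPM. Every AF2 library lay above every WT and KO library, while WT and KO overlapped and only KO 3 among KO libraries exceeded the highest WT library. The WT values rest on 31 reads in all 6 libraries, the KO values on 33 and the AF2 values on 271. Against WT the log2 fold change was 3.79 ± 0.56 (SE) in AF2 and 0.45 ± 0.67 in KO, and AF2 against KO it was 3.34 ± 0.62. Without KO 3 the KO value was -0.27. The AF2 libraries themselves spread from 8.39 to 55.6 CPM, and leaving out any 1 library gave 3.33 to 4.10.

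Over the 14 kidney libraries, the genes whose log2 level followed Cyp7b1 most closely, of 13283 candidates, were Cbs (Pearson r = 0.91), Cacnb4 (0.87) and Emd (0.86). Such correlations are descriptions over 14 libraries that share 3 genotypes, and they include the difference between genotypes. Cbs, cystathionine beta-synthase, had means of 50.9, 51.4 and 86.3 CPM in the order WT, KO, AF2. Other genes of oxysterol and bile acid synthesis gave a different picture. Of 10 on the list 4 passed the filter on low counts, and edgeR called none of them against WT in either mutant, beside 0.844% of all 13502 genes tested in KO and 2.71% in AF2, with median log2 fold changes of 0.33 in KO and -0.07 in AF2. Cyp27a1, the mitochondrial sterol hydroxylase, had a WT mean of 28.4 ± 3.12 CPM (SD, n = 6), a KO mean of 36.5 ± 2.12 (n = 4) and an AF2 mean of 29.6 ± 2.85 (n = 4). Amacr, a racemase for branched-chain and bile acid intermediates, had means of 62.6 ± 12.6, 53.4 ± 11.04 and 43.9 ± 22.9 CPM in the same order. Cyp7a1, the rate-limiting enzyme of the classic bile acid pathway in liver, and Cyp8b1 stayed below the filter.

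The fatty acid hydroxylases of family 4 did not move together. Cyp4b1 (chromosome 4, 115624725 to 115647723, minus strand), which hydroxylates fatty acids and activates some toxins in lung, ranged in WT from 75.1 to 148 CPM with a median of 86.2. The KO libraries gave 39.1, 17.3, 15.9 and 17.4 CPM, and the AF2 libraries gave 13.6, 11.7, 19.3 and 4.01. All 8 mutant libraries lay below all 6 WT libraries, and the KO and AF2 libraries overlapped. The log2 fold change was -2.15 ± 0.38 in KO and -3.02 ± 0.41 in AF2, or 4.44-fold and 8.13-fold lower. KO 1, the highest mutant library, and AF2 4, the lowest, each set part of the spread. Without KO 1 the KO value was -2.54, and without AF2 4 the AF2 value was -2.72. AF2 against KO the log2 difference was -0.87 ± 0.44. It was -0.50 without KO 1, -0.55 ± 0.39 without AF2 4 and -1.21 without AF2 3. The closest genes over the 14 libraries were Aoah (r = 0.94), which deacylates bacterial lipopolysaccharide, Tcea3 (0.94) and Lama5 (0.93).

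Cyp4a10 (chromosome 4, 115518264 to 115533649, plus strand) and Cyp4a14 (115486200 to 115496142, minus strand) are neighbours 22122 bases apart and encode omega-hydroxylases that the fatty acid receptor PPAR-alpha induces. Cyp4a10 ranged in WT kidney from 217 to 295 CPM with a median of 279. In KO 1 to KO 4 it was 265, 672, 342 and 368 CPM, and in AF2 1 to AF2 4 it was 298, 272, 345 and 449.6. KO 2 was the highest library by far, and both mutant groups overlapped WT. Of 451 windows of 50 bases at its 3′ end, 27 were shared with its abundant relative Cyp4a31. Against WT the log2 difference was 0.62 ± 0.22 in KO (edgeR adjusted p = 0.299, 0.27 without KO 2) and 0.35 ± 0.22 in AF2 (adjusted p = 0.520, 0.19 without AF2 4).

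Cyp4a14 ranged in WT from 313 to 588 CPM with a median of 423. The KO libraries gave 410.3, 1063, 453 and 435 CPM, and the AF2 libraries gave 271, 288, 422 and 750.5. KO 2 and AF2 4 were again the highest of their groups, and all 3 genotypes overlapped. Against WT the log2 difference was 0.40 ± 0.36 in KO (edgeR adjusted p = 0.759) and -0.05 ± 0.36 in AF2 (adjusted p = 0.968), with -0.07 in KO without KO 2 and -0.46 in AF2 without AF2 4. The pair rose and fell together from library to library within a genotype, with r = 0.89 between their deviations from the genotype means over 14 libraries and 0.88 without AF2 4. The ratio of Cyp4a14 to Cyp4a10 counts in a library averaged 1.67 ± 0.284 (SD, n = 6) in WT, 1.41 ± 0.191 (n = 4) in KO and 1.22 ± 0.329 (n = 4) in AF2, with overlapping ranges.

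The closest genes to Cyp4a10 were Arhgef12 (r = 0.95), Acot1 (0.93) and Lpin2 (0.93), and those to Cyp4a14 were Slc26a1 (0.89), Gm48225 (0.84) and Ech1 (0.84). Acot1, an acyl-CoA thioesterase, and Ech1, an enoyl-CoA isomerase, belong to fatty acid breakdown. Of the 25 listed targets of PPAR-alpha, with the receptor gene itself among them, 23 were tested. In KO edgeR called none of the 23, beside 0.844% of all genes. Their median log2 fold change was 0.23 against -0.0039 over all genes. Acot1 averaged 89.0 ± 22.2 CPM in WT and 188 ± 101 in KO, a log2 difference of 1.08 ± 0.32 at an edgeR adjusted p of 0.193. In AF2 edgeR called 1 of the 23, beside 2.71% of all genes. It was Fabp3, a fatty acid binding protein, which rose from 89.5 ± 19.1 to 179.6 ± 28.1 CPM, by 1.00 ± 0.14 on the log2 scale (edgeR adjusted p = 2.70e-05). The median over the 23 was 0.04 in AF2. Fabp3 was also higher in AF2 than in KO, by 0.77 on the log2 scale (adjusted p = 0.0165), a call lost without KO 2, KO 4, AF2 1 or AF2 4 (adjusted p at most 0.0821).

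Cyp2j5 (chromosome 4, 96628773 to 96664154, minus strand), an epoxygenase and hydroxylase of arachidonic acid in mouse proximal tubule, was the only one of the 5 tested genes that edgeR called. In WT it ranged from 964 to 1071 CPM with a median of 1002. KO 1 to KO 4 had 898, 993, 759 and 888 CPM, and AF2 1 to AF2 4 had 658, 609, 649 and 612. The AF2 libraries lay below all others with little spread, and 1 KO library, KO 2, fell inside the WT range. In AF2 the gene fell by 0.67 ± 0.09 on the log2 scale (edgeR adjusted p = 2.70e-05), a 1.59-fold change from 1008 ± 41.2 CPM (SD, n = 6) to 632 ± 25.2 (n = 4). With any 1 library left out the change stayed between -0.70 and -0.66, and the adjusted p was at most 0.000262. In KO the difference was -0.19 ± 0.09 (adjusted p = 0.475). AF2 was lower than KO by a log2 difference of -0.48 ± 0.10 (adjusted p = 0.0225). That last call was lost without KO 2 (adjusted p = 0.142), KO 4 (0.0770), AF2 1 (0.0537) or AF2 2 (0.0681).

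Among the genes that followed Cyp2j5 most closely over the 14 libraries were Smap2 (r = 0.92) and Enpp6 (0.91). Enpp6, a choline phosphodiesterase, had means of 165, 108 and 55.6 CPM in the order WT, KO, AF2. Beside these values, the 7 listed markers of the early proximal tubule (S1 and S2) summed to 5971 to 7143 CPM in WT, 5016 to 6251 in KO and 5125 to 5746 in AF2. The AF2 sums lay below all WT sums, and the KO sums overlapped WT. Of the 7 markers, 5 had negative log2 fold changes in KO (median -0.23) and 7 in AF2 (median -0.24). EdgeR called 1 of the 7 lower in each mutant, beside 0.844% of all genes called in KO and 2.71% in AF2. The called marker was Slc22a8, the organic anion transporter, with log2 fold changes of -0.91 in KO (edgeR adjusted p = 0.000747) and -0.97 in AF2 (0.000122). The 5 markers of the late segment (S3) summed to 3564 to 3805 CPM in WT, 3494 to 5146 in KO and 3904 to 4193 in AF2. No listed marker of either segment was at 0. Atp11a of the S3 list rose in AF2 (0.47, adjusted p = 0.0241), a call lost without WT 3, WT 4, WT 6, AF2 2 or AF2 4. Of 3 markers of the thick ascending limb 1 rose in KO and 2 in AF2, and 1 of 5 for collecting duct and 1 of 3 for podocytes rose in AF2. In whole tissue, fewer cells of a type and less RNA per cell cannot be told apart, and the part of these markers in the changes was not tested.

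**Figure D2:**
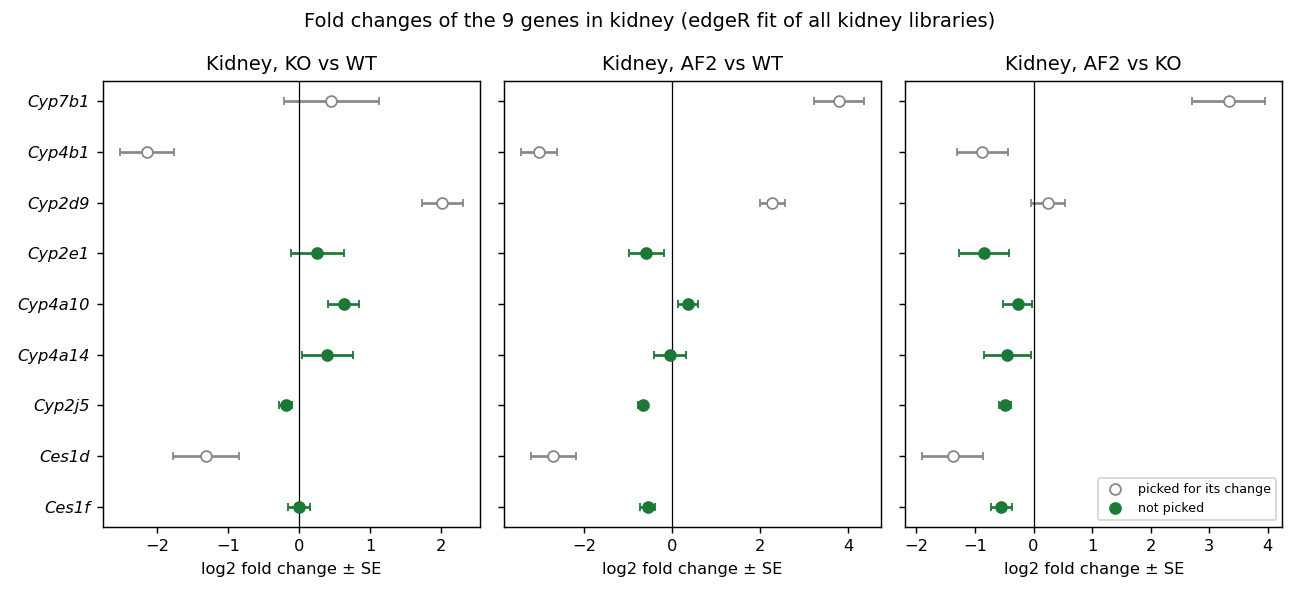
Log2 fold change with SE (lines) of the 9 genes in kidney for KO against WT, AF2 against WT and AF2 against KO; open points mark the 4 genes picked for their change. Cyp4b1 at -2.15 and -3.02 and Cyp2d9 at 2.02 and 2.27 lie far from 0 in both mutants, and Cyp7b1 only in AF2 at 3.79, while the 5 genes not picked lie between -0.67 and 0.62 against WT.

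Cyp2d9 (chromosome 15, 82433437 to 82456845, plus strand) encodes a steroid hydroxylase known for its higher level in the liver of male than of female mice. It ranged in WT kidney from 2.13 to 10.98 CPM with a median of 7.17. The KO libraries gave 26.3, 30.5, 31.9 and 20.8 CPM, and the AF2 libraries gave 43.4, 27.1, 39.9 and 20.8. All 8 mutant libraries lay above all 6 WT libraries, and the 2 mutant groups overlapped. On the log2 scale it was higher by 2.02 ± 0.29 in KO and 2.27 ± 0.29 in AF2, or 4.05-fold and 4.83-fold higher, and AF2 against KO it was 0.25 ± 0.29. Without AF2 4 the AF2 value was 2.44 ± 0.27, and AF2 against KO was 0.42, while without AF2 1 the latter was 0.11. The WT level rests on 95 reads, the KO level on 288 and the AF2 level on 296.

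Cyp2d9 lies 15.4 Mb from Vdr on the same chromosome. Its reads can be shared with close relatives: of 451 windows of 50 bases in the last 500 bases of its transcript, 108 also occurred in 1 or more of 9 other genes or pseudogenes of the Cyp2d cluster. How such reads were assigned is not given in the sources used here, so the Cyp2d9 level is uncertain, by an amount that was not measured. Cyp2d12 of this cluster, chosen after its values were seen, had a WT mean of 6.95 ± 2.58 CPM (SD, n = 6), a KO mean of 3.59 ± 0.724 (n = 4) and an AF2 mean of 2.80 ± 1.96 (n = 4), with edgeR adjusted p-values of 0.348 and 0.0757. Cyp2d10 had 0 reads in kidney. The closest genes to Cyp2d9 were Cyp27b1 (r = 0.89), Amdhd1 (0.88) and Bex1 (0.87). Cyp27b1 had means of 1.87, 115 and 223 CPM in the order WT, KO, AF2. Without AF2 4 its AF2 mean was 289.8 CPM and its r with Cyp2d9 0.90.

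Other genes with a known sex difference in mouse kidney are given beside Cyp2d9. Of 9 genes higher in males 5 were tested, of which 3 had positive and 2 negative log2 fold changes in KO, and 2 positive and 3 negative in AF2. Slc7a13, an amino acid transporter of the late proximal tubule, was named after its values were seen. It measured 0.733 to 2.13 CPM in WT, 1.03 to 40.5 in KO and 4.62 to 14.02 in AF2. Its KO libraries overlapped WT. Its AF2 libraries lay above all WT libraries, where 4.73% of all genes gave AF2 and WT groups with no overlap. It was not called, with log2 fold changes of 3.01 ± 0.90 in KO (edgeR adjusted p = 0.198) and 2.55 ± 0.92 in AF2 (0.204). Of the 5 tested, 1 was called in each mutant, beside 0.844% of all genes in KO and 2.71% in AF2. It was Odc1, ornithine decarboxylase, which fell from 49.2 ± 10.04 CPM to 22.3 ± 6.67 in KO (edgeR adjusted p = 0.00233) and to 17.1 ± 5.21 in AF2 (2.68e-05). Kap, the abundant androgen-regulated kidney protein, had log2 fold changes of -0.08 in KO (adjusted p = 0.906) and -0.49 in AF2 (0.113). Of 4 genes higher in females all were tested, and none was called in KO and 1 in AF2, beside the same shares of all genes. Abcc3, an organic anion pump, fell in AF2 by 0.96 on the log2 scale (adjusted p = 0.0398). That call was lost in 8 of 14 fits with 1 library left out, those without WT 1, WT 2, WT 5, KO 1, KO 3, AF2 1, AF2 3 or AF2 4 (adjusted p at most 0.140).

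Cyp2e1 (chromosome 7, 140763739 to 140774987, plus strand), which oxidises ethanol, acetone and small solvents, ranged in WT kidney from 12.9 to 33.1 CPM with a median of 13.9. KO 1 to KO 4 had 27.8, 26.3, 20.4 and 12.1 CPM, and AF2 1 to AF2 4 had 18.2, 7.94, 17.6 and 4.74. WT 6 was the highest library and AF2 4 the lowest, and the groups overlapped throughout. Its log2 difference was 0.26 ± 0.38 in KO (edgeR adjusted p = 0.870), -0.59 ± 0.40 in AF2 (0.556) and -0.84 ± 0.43 for AF2 against KO (0.479). In AF2 it was -0.31 without AF2 4. Of the 451 windows of 50 bases at its 3′ end, 85 also occurred in 1 or more of 109 other genes, so some of its reads may be shared. Its closest genes were G0s2 (r = 0.89), Slc23a1 (0.88), the vitamin C transporter of the tubule, and Ppif (0.85).

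Among the enzymes that work beside P450s, 11 of 12 listed partners and flavin monooxygenases were tested. None was called in KO, beside 0.844% of all genes, and 1 rose and 1 fell in AF2, beside 2.71%. In AF2 Hmox1, the haem-degrading oxygenase, rose from 5.86 ± 2.91 to 27.1 ± 15.4 CPM, by 2.19 ± 0.43 on the log2 scale (edgeR adjusted p = 0.00988). Fmo1, a flavin monooxygenase, fell from 302 ± 27.5 to 206 ± 43.5 CPM (-0.55 ± 0.12, adjusted p = 0.00621).

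The carboxylesterases Ces1d (chromosome 8, 93166068 to 93197838, minus strand) and Ces1f (93256236 to 93279747, minus strand) lie 58398 bases apart in a cluster of near relatives, and both encode lipid-splitting esterases. Ces1d, a triacylglycerol hydrolase of liver and fat, ranged in WT kidney from 235 to 425 CPM with a median of 342. In KO 1 to KO 4 it was 201, 101, 136 and 101 CPM, and in AF2 1 to AF2 4 it was 78.2, 55.6, 67.1 and 6.92. The 3 genotypes formed separate steps with no overlap, and AF2 4 lay far below the other AF2 libraries. The log2 fold change was -1.31 ± 0.47 in KO, -2.70 ± 0.51 in AF2 and -1.38 ± 0.52 for AF2 against KO. Without AF2 4 these became -1.32 ± 0.25, -2.33 ± 0.30 and -1.01 ± 0.30, so that library moved the AF2 values and widened the shared error.

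Ces1f ranged in WT from 36.7 to 57.5 CPM with a median of 44.1. KO 1 to KO 4 had 45.3, 44.9, 53.7 and 38.2 CPM, and AF2 1 to AF2 4 had 30.3, 43.9, 22.2 and 28.1. Of the AF2 libraries 3 lay below all WT libraries and AF2 2 lay within them, while KO stayed within WT. Its log2 difference was -0.01 ± 0.16 in KO (edgeR adjusted p = 0.994) and -0.56 ± 0.16 in AF2 (adjusted p = 0.0625). The AF2 difference passed without AF2 2 (adjusted p = 0.00786) or WT 5 (0.0463), and with DESeq2 (0.0415). AF2 against KO the log2 difference was -0.55 ± 0.18 (adjusted p = 0.187). Of the 3′ windows of 50 bases, 8 of 451 of Ces1d and 10 of 451 of Ces1f were shared with other carboxylesterases.

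Among the genes most like Ces1d over the 14 libraries were Nus1 (r = 0.96) and Fmo1 (0.94), and Ces1f was most like Pdxdc1 (0.92), Arvcf (0.86) and Polr2d (0.84). Within genotypes, Ces1d deviated together with Cyp4b1 (r = 0.85 over 14 libraries, 0.74 without AF2 4) and with Cyp2e1 (0.71, and 0.59 without AF2 4). Ces1d and its neighbour Ces1f did not share this (0.13). Lipid ester hydrolases of other families gave no call: edgeR called 0 of 7 tested in either mutant, beside 0.844% of all genes in KO and 2.71% in AF2. Their medians were -0.13 in KO and -0.08 in AF2. Since Ces1d is abundant in fat, adipocyte markers are given beside it. Of 8 listed, 3 were tested and none was called, and their sum was 47.7 to 124 CPM in WT, 57.2 to 68.7 in KO and 19.3 to 106 in AF2. The defining markers Adipoq and Plin1 measured at most 2.16 CPM and were 0 in some libraries of each genotype, and the part of fat in the Ces1d values was not tested. The 6 listed hepatocyte markers summed to 207 to 265 CPM in WT, 54.9 to 120 in KO and 52.8 to 110 in AF2, with no overlap between WT and the mutants. Nearly all of this was Ttr, transthyretin, with a WT mean of 228 ± 23.7 CPM, a KO mean of 82.0 ± 28.6 and an AF2 mean of 65.6 ± 25.2, the 1 of 3 tested that was called (edgeR adjusted p = 0.0319 in KO and 0.00428 in AF2). Its KO call was lost without WT 2, WT 3, WT 5, WT 6, KO 2 or KO 4 (adjusted p at most 0.0834). The defining marker Alb was at 3.03 to 11.8 CPM in all kidney libraries, and Ahsg and Apoh were at 0 in some libraries of WT and in all AF2 libraries. The listed markers of pancreas acinar cells with a row in the table summed to 168 to 226 CPM in WT, 90.6 to 162 in KO and 80.7 to 113 in AF2. Nearly all of that was Cela1, an elastase, the 1 tested, which fell in both mutants (adjusted p = 0.00933 in KO, lost without KO 3 at 0.0573, and 2.57e-06 in AF2), while Pnlip measured at most 1.08 CPM. The part of these genes in the Ces1d values was not tested.

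The rest of both families put these values in context. The kidney table held 93 P450 and carboxylesterase symbols, and 41 were tested. Of 20 tested P450s of families 1 to 4 outside the 9, 1 fell and none rose in KO, beside 0.844% of all genes called, and 1 rose and 1 fell in AF2, beside 2.71%. Cyp2a5 fell in both, from 14.4 ± 3.25 CPM to 4.48 ± 3.21 in KO (-1.71 ± 0.39 on the log2 scale, edgeR adjusted p = 0.0319) and to 3.75 ± 2.26 in AF2 (-1.94 ± 0.40, 0.00563). Its KO call was lost without WT 3, WT 4, WT 5, KO 2, KO 3 or KO 4 (adjusted p at most 0.133). Cyp2j6, a relative of Cyp2j5, rose in AF2 from 28.0 ± 2.58 to 39.9 ± 4.82 CPM (0.51 ± 0.14, adjusted p = 0.0453), a call that was lost when any 1 library other than AF2 4 was left out (adjusted p at most 0.154). The P450s outside the 9 with the highest CPM in WT gave no call: Cyp4a31 (445 ± 67.4 CPM in WT), Cyp51 (353 ± 45.8), Cyp2d26 (198 ± 15.2), Cyp2j11 (87.2 ± 7.73) and Cyp2a4 (76.5 ± 10.5) passed in neither mutant.

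Of 7 tested P450s of other families, 2 were called in each mutant, beside 0.844% of all genes in KO and 2.71% in AF2. Both were enzymes of vitamin D itself. Cyp27b1 rose by 5.93 ± 0.78 on the log2 scale in KO (edgeR adjusted p = 0.00445) and by 6.88 ± 0.78 in AF2 (0.000473), or by 7.25 ± 0.44 without AF2 4 (6.49e-06). Cyp24a1 averaged 16.5 CPM in WT and lay at or below 0.467 CPM in every mutant library. Among carboxylesterases outside the 9, 5 of 16 were tested. All 5 had negative log2 fold changes in both mutants, with medians of -0.64 in KO and -1.08 in AF2, where the median over all genes was -0.0039 and 0.0047. EdgeR called 1 of the 5 in KO, beside 0.844% of all genes, and 2 in AF2, beside 2.71%. Ces2b fell in KO (-1.23 ± 0.31, adjusted p = 0.0477) and in AF2 (-1.09 ± 0.31, 0.0471), and Ces1e fell in AF2 (-1.08 ± 0.21, 0.00355) from 60.4 ± 15.7 to 28.7 ± 4.27 CPM. The other 3 did not pass in either. The Ces2b calls were each lost in 9 of 14 fits with 1 library left out. In KO these were the fits without WT 2 to WT 6 or any KO library (adjusted p at most 0.198), and in AF2 those without any WT library, KO 3, AF2 1 or AF2 3 (at most 0.174).

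**Figure D3:**
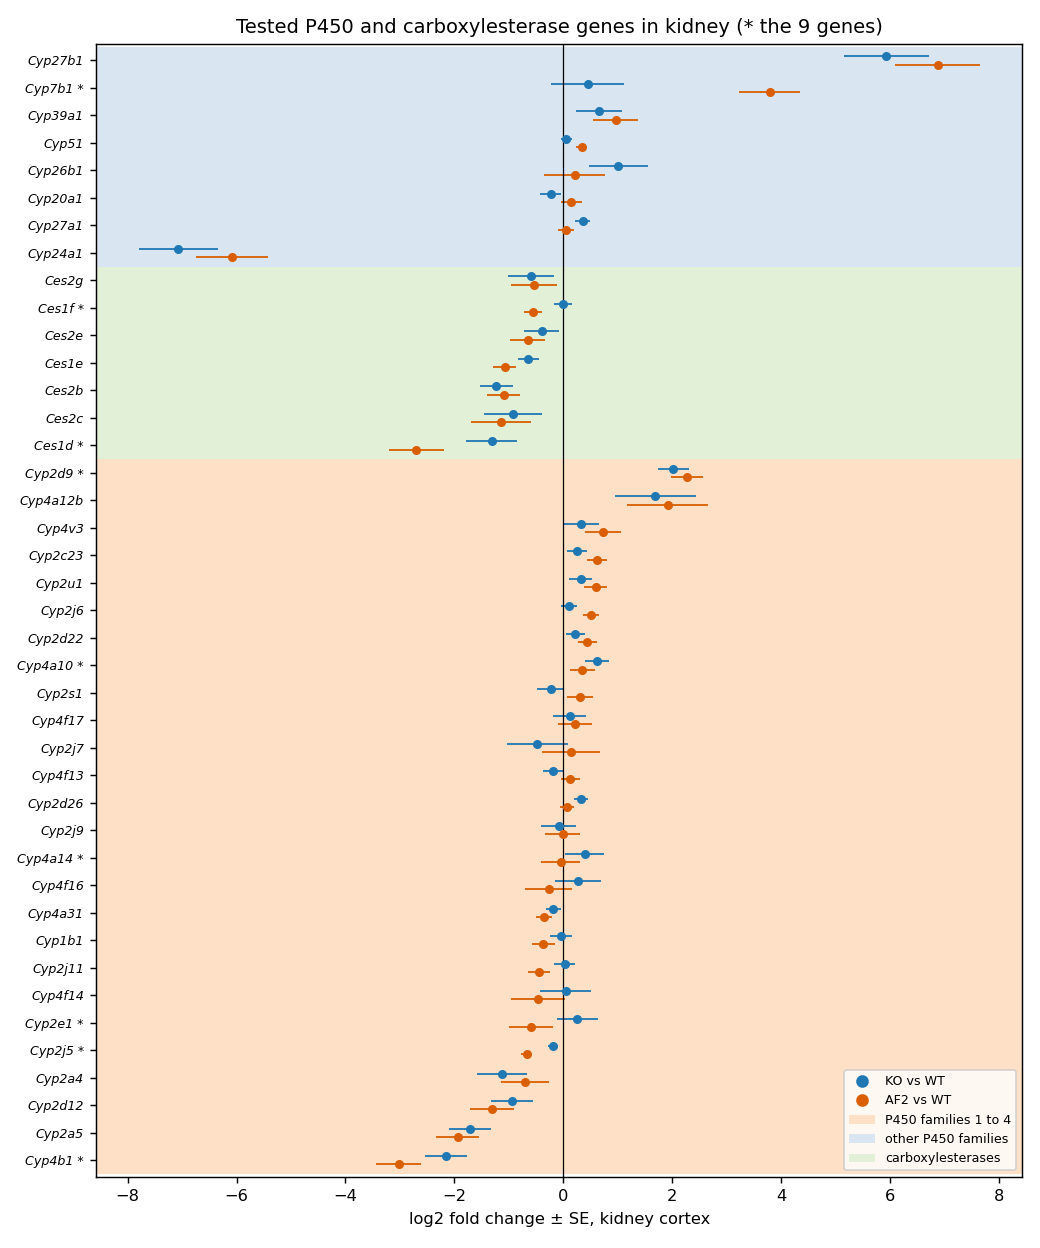
Log2 fold change with SE (lines) against WT in KO and AF2 for the 41 tested P450 and carboxylesterase genes of kidney, ordered by family and by the AF2 value; asterisks mark the 9 genes. Most P450s lie near 0, Cyp27b1 and Cyp24a1 lie at the ends with 6.88 and -6.09 in AF2, and the carboxylesterases lie on the negative side, with Ces1f in KO nearest 0 at -0.01.

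Counted together, edgeR called 0 of the 5 genes not picked in KO against WT, beside 0.844% of all 13502 genes tested. The unadjusted p was under 0.05 for 1 of them, Cyp4a10, and DESeq2 and limma-voom called none. In AF2 against WT it called 1 of 5, Cyp2j5, beside 2.71%, and in AF2 against KO 1 of 5, Cyp2j5, beside 0.333%. Their median log2 fold change was 0.26 in KO and -0.56 in AF2, where the median over all genes was -0.0039 and 0.0047. The 2 comparisons share the WT libraries. Of the 4 picked genes, groups did not overlap for 3 in KO against WT (Cyp4b1, Cyp2d9 and Ces1d), beside 3.44% of all genes, and for 4 in AF2 against WT, beside 4.73%. For AF2 against KO they did not overlap for 2 (Cyp7b1 and Ces1d), beside 7.16%. Since those genes were picked for these changes, nothing is read from their counts. Cyp2j5 also gave separate groups in AF2 against WT and in AF2 against KO.

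Library codes in the labels form 3 runs per tissue, the first holding WT 1 and WT 2, the second WT 3, WT 4 and the KO libraries, and the third WT 5, WT 6 and the AF2 libraries. What a run stands for is not given in the sources used here. With runs as a block, the log2 fold changes in KO were 0.72 for Cyp7b1, -2.39 for Cyp4b1, 2.23 for Cyp2d9 and -1.42 for Ces1d. In AF2 they were 2.97, -2.77, 1.74 and -2.55, and for Cyp2j5 -0.67 (edgeR adjusted p = 0.00200). KO and AF2 never share a run, and AF2 against KO rests there on the WT libraries alone. The Cyp2j5 difference between AF2 and KO was then -0.45 (adjusted p = 0.900), and that of Cyp2d9 turned from 0.25 to -0.49.

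**Figure D4:**
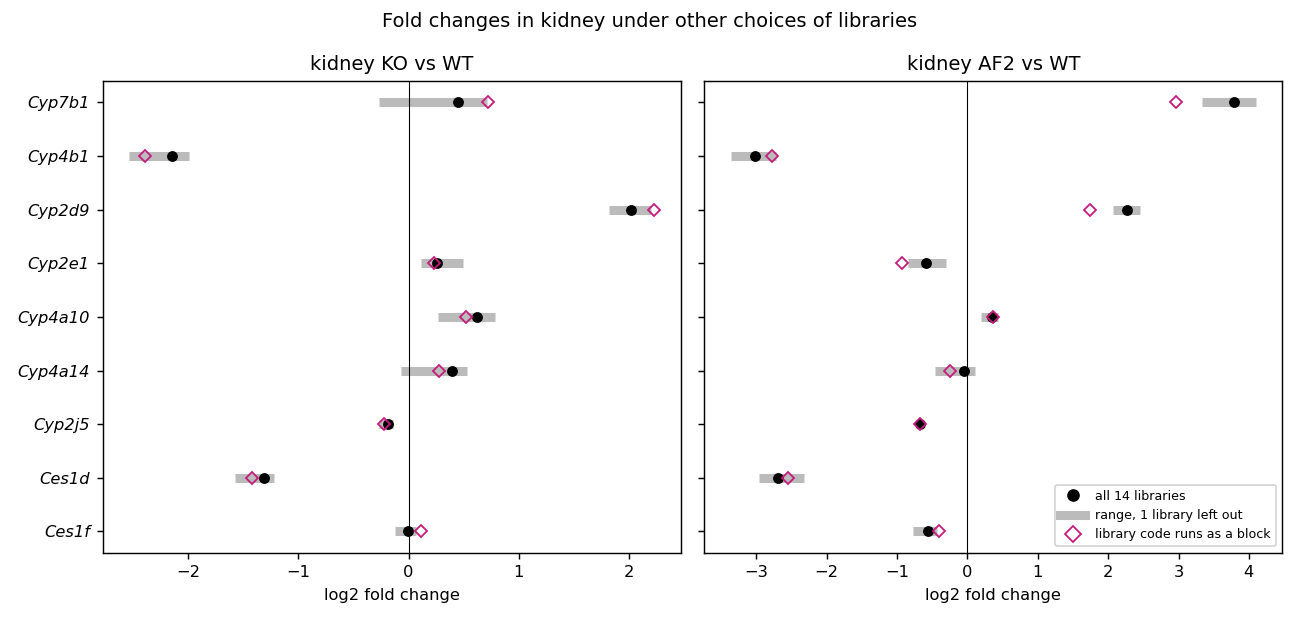
Log2 fold change of the 9 genes in kidney with all 14 libraries (dots), the range when any 1 library is left out (grey bars) and the value with library code runs as a block (open diamonds), for KO against WT and AF2 against WT. Cyp4b1, Cyp2d9 and Ces1d stay on their side of 0 in both mutants, and the grey bar of Cyp7b1 in KO crosses 0, from -0.27 to 0.72.

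In duodenum, which absorbs calcium under vitamin D and meets foreign compounds first, the genes were low or gave no genotype call. Of the 9 genes 6 passed the filter there, and Cyp2e1, Cyp4a14 and Cyp2j5 did not. WT libraries of both tissues were compared in 1 fit, where 69.9% of 14944 genes were called and 34.3% were called higher in kidney. Cyp4a10 was called higher in kidney, by 4.78 ± 0.40 on the log2 scale (edgeR adjusted p = 2.02e-10). Cyp2e1, Cyp4a14 and Cyp2j5 entered that fit only through kidney, where they are high, so their tissue differences are a description with no test. The log2 difference was 3.31 ± 0.82 for Cyp2e1. Cyp4a14 and Cyp2j5 were nearly absent in duodenum, with 6 and 14 reads over the 6 WT libraries. Ces1f (-0.18 ± 0.21, adjusted p = 0.450) did not pass. Ces1f measured 45.7 ± 7.32 CPM in WT kidney and 54.4 ± 25.1 in WT duodenum (SD, n = 6 each). The picked genes were chosen with these WT kidney counts, so their tissue differences are a description with no test: 0.86 ± 0.55 for Cyp7b1, 2.48 ± 0.37 for Cyp4b1, 2.20 ± 0.42 for Cyp2d9 and 5.77 ± 0.46 for Ces1d on the log2 scale.

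**Figure D5:**
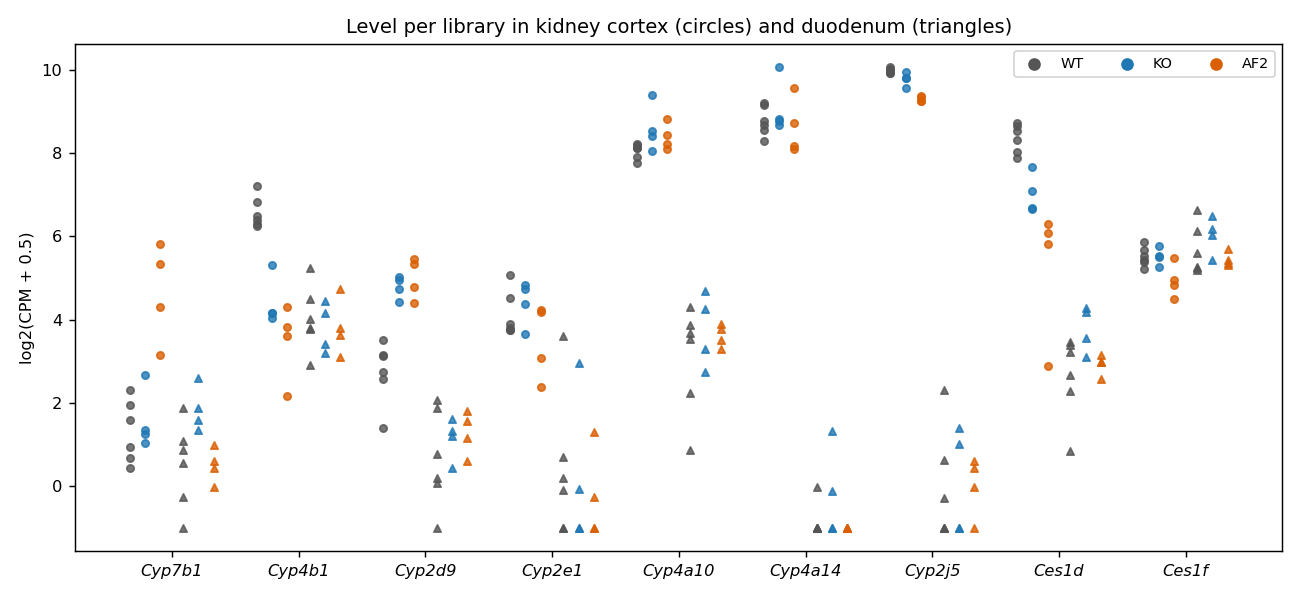
Level of each of the 9 genes per library as log2(CPM + 0.5) in kidney cortex (circles) and duodenum (triangles), coloured by genotype. Cyp4a14 and Cyp2j5 fall to the floor of the plot in duodenum, Ces1f lies at about the same height in both tissues, and the shifts of Cyp7b1, Cyp4b1, Cyp2d9 and Ces1d between genotypes are seen among the circles.

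No gene was called in mutant duodenum, where edgeR called 0.0226% of 13302 genes in KO and 0.0677% in AF2. Of the 6 tested, the unadjusted p was under 0.05 for 2 in KO and for 0 in AF2. Limma-voom called none of the 6, and DESeq2 called none of the 4 for which it gave an adjusted p, leaving out Cyp7b1 and Cyp2d9. Cyp7b1 measured 0 to 3.16 CPM in WT duodenum (median 1.15), while KO 1 to KO 4 had 2.05, 2.53, 5.55 and 3.19 and AF2 1 to AF2 4 had 0.494, 1.01, 0.866 and 1.49. These duodenal values rest on 33 reads in WT, 29 in KO and 9 in AF2. There the KO libraries were the higher ones, overlapping WT, with a log2 fold change of 1.42 ± 0.61 (edgeR adjusted p = 0.362) against -0.36 ± 0.69 in AF2 (0.894). Ces1d measured 1.31 to 10.5 CPM in WT (median 7.35), while KO 1 to KO 4 had 11.3, 8.11, 18.8 and 17.8 and AF2 1 to AF2 4 had 8.40, 7.44, 7.36 and 5.45. Here too KO held the highest libraries and overlapped WT. Its log2 difference was 1.08 ± 0.37 in KO (edgeR adjusted p = 0.269) and 0.12 ± 0.38 in AF2 (0.945). Cyp4b1, at 18.2 ± 10.6 CPM in WT, gave -0.34 in KO and -0.30 in AF2 (adjusted p = 0.812 and 0.852), and Cyp2d9, Cyp4a10 and Ces1f had adjusted p-values of 0.729 to 0.926.

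Whether a genotype effect differed between the tissues was tested for the 5 genes not picked. EdgeR called 0 of 5 for KO, beside 0.0535% of 14944 genes, and 0 of 5 for AF2, beside 0.381%. None had an unadjusted p under 0.05, and DESeq2 called none. For Cyp2j5, the gene that fell in AF2 kidney, the difference of effects was -0.67 ± 1.08 (adjusted p = 0.900), with an error set by its few duodenal reads. Duodenal Cyp2e1 was highest in WT 3 at 11.6 CPM and KO 3 at 7.25 CPM, and at most 1.98 CPM elsewhere. These 2 libraries also had the highest albumin (Alb) of their groups, 220.4 and 107 CPM. The sum of the 6 listed hepatocyte markers was highest in WT 6 (5529 CPM) and KO 2 (3435 CPM). That sum was at least 1674 CPM in every WT and KO library, so Alb was a small part of it. Of the 6 markers, 5 were tested and none was called, beside 0.0226% of all genes in KO and 0.0677% in AF2. Their median log2 fold change was -0.25 in KO and -6.34 in AF2. The part of liver RNA in the duodenal Cyp2e1 values was not tested.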

How the data were processed

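The deposited table of each tissue lists raw counts for every gene symbol in every library, not normalised by the authors, per the file headers. Genotype came from the sample titles, and sex, age and diet from the file headers. The labels' protocols name TRIzol extraction and QuantSeq libraries, and the submitters' processing notes name mm10 and limma 3.34.9 without saying for what. Aligner, counter and use of strand: not given in the sources used here. All counts were even, so reads are counts divided by 2, while tests used counts as deposited. No pair of libraries was identical, and pairs within a group differed beyond sampling noise (lowest chi-square per degree of freedom 1.96 in kidney and 5.00 in duodenum).

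Each tissue was fitted with all 14 libraries in edgeR 4.0.16 (R 4.3.3): filterByExpr by group, TMM scaling, robust quasi-likelihood F tests, two-sided, genotype as the only term, and Benjamini-Hochberg adjustment over all genes tested, with calls under 0.05. SE was taken as the size of the log2 fold change divided by the root of its F statistic. Both tissues were fitted together for the tissue difference and its interaction with genotype. On simulated data with 200 changed genes, the kidney AF2 against WT step recovered 91% of the genes changed 4-fold, 66.7% of those changed 2-fold and 14.1% of those changed 1.5-fold, with 5 false calls over 13221 genes.

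The members and gene lists were chosen with earlier results of these data known. Named beside the 9 genes are up to 6 called family genes each way per contrast, the 6 with the highest WT level, called members of each list or the 2 most abundant, and the 3 genes most correlated with each member on log2(CPM + 0.5), among genes averaging 1 or more log2 CPM. A few genes that this rule selects are not reported here. Acot1 as a list member, Cyp2d12, Cyp2d22, Cyp2d10, Cyp7a1, Cyp8b1, Kap, Slc7a13, Alb, Ahsg, Apoh and Pnlip were named after their values were seen. GENCODE vM21 names matched 29409 of 30227 kidney symbols and gave coordinates and transcript ends. Alternatives were DESeq2 1.42.0, limma-voom (limma 3.58.1), RLE factors, no filter, halved counts, blocks by replicate number or library code run, and leaving out each library.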

Additional observations from a re-analysis of the deposited data

Results flagged for a closer look

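In 3 of 45 groups of libraries examined, 1 library lay far from the rest of its group, judged by its gap to the nearest library over the whole range of the group. Chance alone gives this in about 1 in 20 groups. All 3 were kidney KO libraries, and each was a different one. KO 3 had 5.90 CPM of Cyp7b1 where the other KO libraries had 1.54 to 2.06 CPM. KO 1 had 39.1 CPM of Cyp4b1 where the others had 15.9 to 17.4 CPM. KO 2 had 1063 CPM of Cyp4a14 where the others had 410.3 to 453 CPM.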

How the results depend on the processing

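Cyp2j5 stayed called in kidney AF2 against WT under every alternative run. Against KO it was lost with the replicate block (adjusted p = 0.0542), the code-run block and 4 left-out libraries. Ces1f in AF2 passed with no filter (adjusted p = 0.0166), with DESeq2, with the replicate block (0.0492) and without AF2 2 or WT 5. Ces1d in duodenal KO passed with no filter (0.0388). Within a tissue, replicate numbers did not pair the genotypes. Same-numbered libraries of different genotypes correlated at -0.037 to 0.175 in kidney and -0.208 to 0.106 in duodenum, and 4 and 3 of 12 correlated best with their own number. Whether a number stands for the same mouse in kidney and duodenum was not examined, and the main fit of both tissues had no term for it. The replicate block gave 79, 338 and 52 kidney calls in KO against WT, AF2 against WT and AF2 against KO.

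Counts of calls moved most. Kidney KO against WT (114) gave 220 with DESeq2, 252 with no filter and 25 with the code-run block, and AF2 against WT (366) gave 590 with no filter and 121 with that block. AF2 against KO (45) gave 150, 193 and 1. Duodenal KO (3) gave 110 with DESeq2, 215 with no filter, 8 with halved counts and 1 with code runs. Duodenal AF2 (9) gave 154, 0 with limma-voom, 240 with no filter, 1 with the replicate block and 131 with code runs. The KO interaction (8) gave 66, 23 with no filter and 3 with code runs, and the AF2 interaction (57) gave 187 with DESeq2 and 33 with code runs. With 1 library left out, the counts ran from 38 (without KO 4) to 206 (without AF2 4) for kidney KO, 294 to 365 for kidney AF2, 22 to 78 for AF2 against KO, 1 to 229 for duodenal KO, 0 to 217 for duodenal AF2, 10105 to 10691 between tissues, 0 to 23 for the KO interaction and 19 to 123 for the AF2 interaction. The cause was not tested.

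Only values that were not called, or not tested, changed sign. With the replicate block these were Cyp4a14 in kidney AF2 (0.018), Cyp4b1 in duodenal KO (0.13) and AF2 (0.054) and the Cyp4a10 KO interaction (-0.013). Limma-voom gave 0.0032 for Ces1f in kidney KO. Code runs gave 0.11 for it, -0.49 for Cyp2d9 in AF2 against KO, 0.52 for Cyp4b1 and -0.021 for Cyp4a10 in duodenal KO, -0.76 for Cyp2d9 in duodenal AF2, 0.87 for the Cyp2j5 KO interaction, and -5.51, -0.39 and -0.25 for the AF2 interactions of Cyp2e1, Cyp4a10 and Cyp4a14. Cyp7b1 in AF2 against KO moved to 2.25 there. With 1 library left out, log2 values ran from -0.27 to 0.72 for Cyp7b1 in kidney KO, -0.066 to 0.53 and -0.46 to 0.11 for Cyp4a14 in kidney KO and AF2, -0.85 to 0.0094 and -0.44 to 0.081 for Cyp4a14 and Cyp4a10 in AF2 against KO, and -0.12 to 0.070 for Ces1f in kidney KO. In duodenum they ran from -0.10 to 0.28 for Ces1d in AF2, -0.0075 to 0.71 for Cyp2d9 in KO, -0.0071 to 0.48 for Cyp4a10 in AF2, and -0.60 to 0.0050 and -0.72 to 0.043 for Cyp4b1 in KO and AF2. Ces1f between tissues ran from -0.28 to 0.073. KO interactions ran from -1.34 to 3.65 for Cyp2e1, -1.89 to 0.21 for Cyp2j5, -0.23 to 0.48 for Cyp4a10 and -4.10 to 0.97 for Cyp4a14. AF2 interactions ran from -0.33 to 3.01 for Cyp2e1, -0.084 to 0.36 for Cyp4a10 and -0.054 to 3.57 for Cyp4a14.

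Depth limits Cyp7b1 in WT and KO kidney, and Cyp4a14, Cyp2j5, Cyp2e1, Cyp7b1 and Cyp2d9 in duodenum, where few reads were counted. Reads carry no molecular identifiers, so errors cover these libraries only.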
